A study of Mus musculus with 2 samples.

Results

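Collagens and laminins are the structural proteins of connective tissue and of basement membranes. Their genes were followed across the gated cell classes of the embryonic mouse dorsal telencephalon. All symbols of the form Col, number, a, number or Lam, a to c, number in the gene list were taken, which gave 55 of 32285 genes, comprising 44 collagens and 11 laminins. The study used these wild-type (WT) cells as the embryonic cortical reference for signalling between interneurons and progenitors. Single cells of the dissected dorsal telencephalon (tissue label "Brain hemispheres") were profiled by droplet-based 3′ RNA sequencing at embryonic day (E) 16.5 in 2 libraries of the same WT group, named here WT1 and WT6. Both come from a colony whose titles carry the name EmxDot, and no mutant, treated group or other age was analysed here. The labels name neither a strain nor the sex, nor do they state whether each library was 1 embryo. The single-cell methods text of the study gives only an earlier embryonic day than the sample titles do. Its results, however, also report single-cell data of the E16.5 dorsal telencephalon, and its data statement lists an E16.5 dataset. The study names a strain for its single-cell embryos, which the labels of these 2 libraries do not repeat. With 1 genotype, the comparisons below are between cell classes within the same 2 libraries, and p-values measure the spread between these 2 libraries only.

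Collagens are trimers of alpha chains. Fibrillar collagens form the tensile fibres of connective tissue, type IV collagens build the sheet-like network of basement membranes, and further families decorate fibres, form beaded filaments or stay in the cell membrane. Laminins are heterotrimers of an alpha, a beta and a gamma chain that organise basement membranes and bind integrins and dystroglycan on cells. In the developing cortex such a membrane lies under the meninges, where the end feet of radial glia attach, and another surrounds the blood vessels.

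Type IV collagen genes lie in head-to-head pairs, and the start regions of Col4a1 with Col4a2 and of Col4a5 with Col4a6 are shown because each of these pairs had similar profiles over the cell classes below. The gene ranges were chr8:11198423-11312889 (minus strand) for Col4a1 and chr8:11312805-11449287 (plus strand) for Col4a2. The transcript starts used for their windows, 11312826 and 11312805, lay 21 bases apart. For Col4a5 (chrX:141475370-141689236, plus strand) and Col4a6 (chrX:141165403-141474095, minus strand) these transcript starts, 141475419 and 141474076, lay 1343 bases apart. The 300-base windows run from 250 bases before to 50 bases after each RefSeq start on GRCm38.p6, the same assembly as the submitters' mm10, and are written 5′ to 3′ on the strand of the gene, at chr8:11312777-11313076, chr8:11312555-11312854, chrX:141475169-141475468 and chrX:141474027-141474326, in the order printed. Capitals mark the letters GGGCGG of a GC box or CCAAT of a CCAAT box on either strand.
Col4a1: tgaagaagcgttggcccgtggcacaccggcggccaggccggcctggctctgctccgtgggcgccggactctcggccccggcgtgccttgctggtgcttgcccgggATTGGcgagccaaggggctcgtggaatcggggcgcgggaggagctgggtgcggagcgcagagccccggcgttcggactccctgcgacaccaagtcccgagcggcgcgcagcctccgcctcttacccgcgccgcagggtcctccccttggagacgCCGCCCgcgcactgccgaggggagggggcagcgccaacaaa
Col4a2: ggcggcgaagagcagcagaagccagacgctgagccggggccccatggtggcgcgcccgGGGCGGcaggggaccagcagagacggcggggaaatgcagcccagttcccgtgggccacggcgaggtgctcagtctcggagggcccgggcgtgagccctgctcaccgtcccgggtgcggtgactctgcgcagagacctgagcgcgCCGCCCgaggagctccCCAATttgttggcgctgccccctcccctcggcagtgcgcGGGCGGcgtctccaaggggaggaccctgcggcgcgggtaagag
Col4a5: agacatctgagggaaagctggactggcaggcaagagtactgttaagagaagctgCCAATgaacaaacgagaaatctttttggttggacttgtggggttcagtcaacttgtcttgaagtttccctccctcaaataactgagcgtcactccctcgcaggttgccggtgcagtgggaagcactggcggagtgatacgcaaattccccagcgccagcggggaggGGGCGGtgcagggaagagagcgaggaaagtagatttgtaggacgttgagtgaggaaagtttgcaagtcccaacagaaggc
Col4a6: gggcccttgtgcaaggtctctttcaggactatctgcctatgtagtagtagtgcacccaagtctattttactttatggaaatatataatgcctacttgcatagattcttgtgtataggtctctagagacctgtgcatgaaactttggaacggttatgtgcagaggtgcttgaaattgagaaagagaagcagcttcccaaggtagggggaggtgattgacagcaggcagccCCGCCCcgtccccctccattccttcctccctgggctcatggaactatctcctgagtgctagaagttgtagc
The windows of Col4a1 and Col4a2 shared 78 bases, while those of Col4a5 and Col4a6 shared none. The Col4a2 window held 3 GC boxes and each of the others held 1, a CCAAT box was found in all but the Col4a6 window, and the letters TATAAA were found in none of the 4. The GC box of the Col4a1 window and the last GC box of the Col4a2 window are the same site, within the shared bases. Across the 40 members with a promoter window in the RefSeq table, 62.5% held a GC box, against 35.9% of all 27025 windows, and 32.5% held a CCAAT box, against 37.9%. Letters matching a motif describe the sequence and do not show a bound factor.

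Cells with 1500 to 60000 unique molecular identifiers (UMIs, each standing for 1 captured RNA molecule) and under 10% mitochondrial UMIs were kept, which left 8139 of 14136 cells in WT1 and 8209 of 13046 in WT6, with 65195733 and 62402927 UMIs. A class was assigned where a cell had UMIs of at least 3 of 8 markers and at least 2 more than of any other class, and no collagen or laminin gene was among the markers. The gates held 104 and 101 fibroblasts, 114 and 111 mural cells, 89 and 66 endothelial cells, 447 and 440 radial glia, 174 and 193 intermediate progenitors, 2757 and 3022 excitatory neurons, 1942 and 1897 inhibitory neurons and 59 and 55 Cajal-Retzius cells. Of the gate markers of the 3 non-neural classes, Dcn was at 1421 and 1583 CPM in fibroblasts with 1 UMI in all mural cells. Rgs5 was at 3651 and 4150 CPM in mural cells against 1.92 and 1.52 in fibroblasts. Cldn5 was at 4016 and 4319 CPM in endothelial cells against 2.56 and 2.02 in mural cells. As these markers were used for gating, their separation does not test the classes. Sums of full marker lists are given with several comparisons below. The 2 libraries shared 26 cell barcodes among kept cells. Levels (CPM) are UMIs of a gene per 1000000 UMIs, summed over the cells of a class in a library, and pairs of values are given as WT1 and WT6. Microglia (89 and 98 cells) and erythroid cells (30 and 41) served as the background for free RNA. This background was uneven, as all collagens together were at 205 and 69.2 CPM in microglia and at 53.4 and 19.3 CPM in erythroid cells.

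Collagen transcripts were concentrated in the fibroblasts. They made up 0.955% and 0.980% of all fibroblast UMIs, 0.627% and 0.621% in mural cells and 0.227% and 0.298% in endothelial cells, but 0.0473% and 0.0435% in radial glia and 0.0122% and 0.0115% in excitatory neurons. Laminins were divided more evenly between the mesenchymal classes, with 0.170% and 0.174% of UMIs in fibroblasts and 0.167% and 0.165% in mural cells. In endothelial cells they made up 0.0869% and 0.0758%, and in radial glia 0.0161% and 0.0157%. Of the 55 members, 23 reached 100 CPM in at least 1 of the 8 classes described (those listed above, without oligodendrocyte precursors, microglia and erythroid cells). The highest level was in fibroblasts for 17 of these and in mural cells for the other 6, Col4a1, Col4a2, Lama4, Lamb1, Lamc1 and Lamc3. For all 23, the libraries of the highest and the next class did not overlap. Both classes were picked from these same values, and the share of all genes without overlap was not computed. Below 100 CPM these libraries overlapped for some members, such as Col27a1, Col12a1 and Lamb2. No member was without UMIs in kept cells, but 10 had fewer than 100 UMIs over all kept cells of both libraries, namely Col5a3, Col24a1, Col4a3, Col8a2, Col10a1, Col6a4, Col6a5, Col6a6, Col17a1 and Lamb3.

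**Figure D1:**
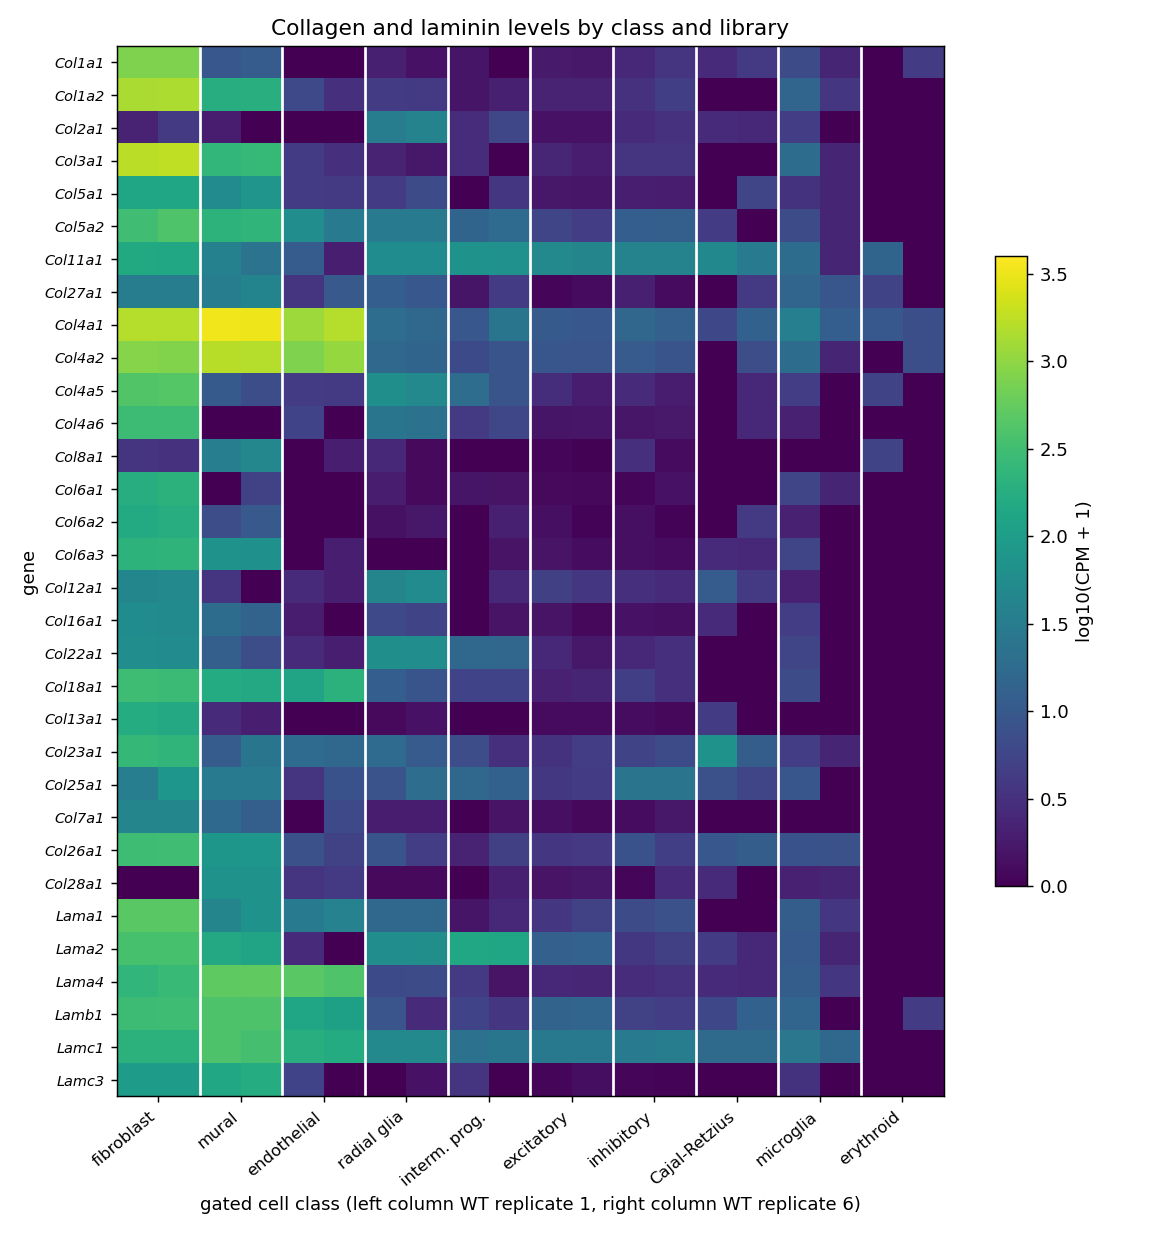
Levels of the 32 members with at least 30 CPM in 1 or more of the 8 described classes, as log10(CPM + 1), with a row per gene and a pair of columns per class (left WT1, right WT6). The fibroblast and mural columns are brightest, Col4a1 and Col4a2 are bright in all 3 non-neural classes, and Lama2 and Col11a1 also stand out in the progenitor columns.

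Among the fibrillar collagens, Col3a1 (type III) was at 1682 and 1795 CPM in fibroblasts and 240 and 261 CPM in mural cells, and at most 3.43 CPM in any endothelial, radial glial or intermediate progenitor library. The chains of type I collagen followed, with Col1a2 at 1383 and 1452 CPM and Col1a1 at 792 and 799 CPM in fibroblasts. In mural cells Col1a2 remained at 174 and 183 CPM, whereas Col1a1 was at 8.55 and 10.1 CPM. The ratio of Col1a1 to Col1a2 UMIs was thus 0.573 and 0.550 in fibroblasts and 0.0493 and 0.0552 in mural cells, and the libraries of the 2 classes did not overlap. Col5a1 and Col5a2, chains of the type V collagen that starts fibril assembly, differed less between the classes, with Col5a2 at 314 and 401 CPM in fibroblasts and 210 and 226 CPM in mural cells. Col3a1 and Col5a2 are neighbours on chromosome 1, yet the ratio of their UMIs was 5.36 and 4.47 in fibroblasts and 1.14 and 1.15 in mural cells. Col11a1, a type XI chain, was spread most widely, at 151 and 145 CPM in fibroblasts, 55.0 and 56.0 in radial glia, 69.5 and 66.2 in intermediate progenitors, 47.8 and 42.8 in excitatory neurons and 40.04 and 40.26 in inhibitory neurons, against 17.6 and 1.38 in microglia.

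The type IV collagens fell into separate patterns by gene pair. Col4a1 was highest in mural cells at 3290 and 3273 CPM, and reached 1593 and 1566 CPM in fibroblasts and 1176 and 1571 CPM in endothelial cells. Col4a2, the partner chain in the common type IV trimer, had 1655 and 1588, 897 and 819, and 807 and 1071 CPM in the same order. In radial glia Col4a1 was at 18.4 and 15.0 CPM, which lay within the microglial values of 35.1 and 11.1 CPM. In erythroid cells, the other background class, all type IV collagens together were at 13.4 and 12.9 CPM. Col4a5 and Col4a6, which form another type IV network, were instead found in fibroblasts (421 and 439 CPM for Col4a5, 289 and 292 CPM for Col4a6) and next in radial glia (61.1 and 48.6, and 24.3 and 21.5 CPM). No Col4a6 UMI was found in 225 mural cells, which at this depth, and for counting error only, allows a share of up to 1.33% of cells with a UMI, and the level of Col4a5 there was 9.40 and 6.07 CPM. In microglia Col4a5 had 3.51 and 0 CPM, below both radial glial libraries.

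Some neighbouring chains had similar profiles over the classes and others did not. Over the mean log2 CPM of the 8 described classes, all from the same 2 libraries, Pearson's r was 0.993 for Col4a1 with Col4a2 and 0.935 for Col4a5 with Col4a6. It was 0.964 for Col6a1 with Col6a2 and 0.890 for Col3a1 with Col5a2. The neighbouring genes Col4a3 and Col4a4 gave -0.17 and Col9a1 and Col19a1 -0.20. Within the pairs the ratios differed between classes. Col4a1 to Col4a2 was 1.78 and 1.91 in fibroblasts, 1.99 and 2.06 in mural cells and 1.46 and 1.47 in endothelial cells, and Col4a5 to Col4a6 was 1.46 and 1.51 in fibroblasts and 2.51 and 2.27 in radial glia. Of all type IV UMIs, Col4a5 and Col4a6 made up 46.3% and 44.0%, and 18.4% and 19.4%, in radial glia, against 13.1% and 14.1%, and 9.02% and 9.36%, in fibroblasts.

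**Figure D2:**
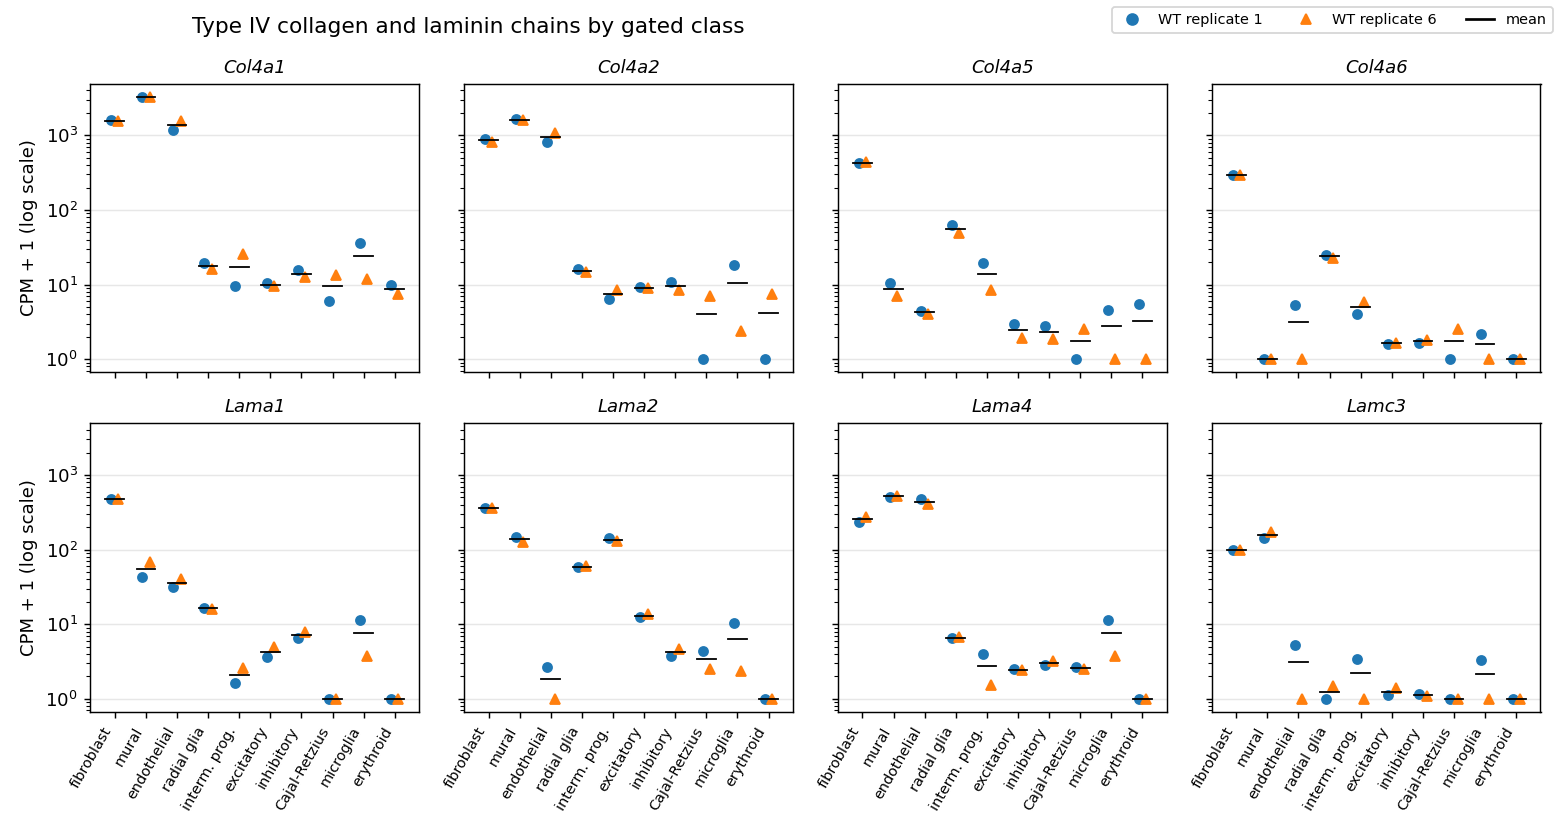
CPM + 1 on a log axis of 8 basement membrane chains in 10 gated classes, with circles for WT1, triangles for WT6 and a line for the mean. Col4a1 and Col4a2 share a plateau over fibroblasts, mural and endothelial cells, Col4a5 and Col4a6 are high in fibroblasts and next in radial glia, and Lama2 has 2 UMIs in endothelial cells but reaches 141 and 128 CPM in intermediate progenitors.

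Beaded-filament collagen VI was largely a fibroblast product. Col6a1 was at 175 and 202 CPM, Col6a2 at 159 and 173 CPM and Col6a3 at 208 and 220 CPM there. Col6a3 alone of the 3 chains was also present at 70.1 and 62.7 CPM in mural cells, where Col6a2 had 5.98 and 9.10 CPM and Col6a1 a total of 4 UMIs. Endothelial cells held no UMI of Col6a1 or Col6a2. Among the remaining collagens at 100 CPM or more, Col13a1 and Col23a1, which stay in the membrane of the cell, were at 168 and 146 CPM and at 251 and 228 CPM in fibroblasts. Col26a1 was at 301 and 310 CPM in fibroblasts and 79.5 and 77.8 CPM in mural cells. Col18a1, the precursor of endostatin, was the collagen besides Col4a1 and Col4a2 that reached 100 CPM in all 3 non-neural classes, at 302 and 283, 163 and 146, and 126 and 207 CPM.

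Laminin alpha chains divided the classes. Lama1, a chain of early and meningeal basement membranes, was at 483 and 474 CPM in fibroblasts and at 41.9 and 66.7 CPM in mural cells. Lama4, the alpha chain typical of vessels, was at 513 and 518 CPM in mural cells, 472 and 406 in endothelial cells and 232 and 275 in fibroblasts. Lama2, the chain mutated in a congenital muscular dystrophy, was at 357 and 357 CPM in fibroblasts and 148 and 125 CPM in mural cells, with 2 UMIs in all endothelial cells. It was the leading alpha chain in both progenitor classes and in excitatory neurons, at 58.1 and 58.6 CPM in radial glia and 141 and 128 CPM in intermediate progenitors. As a share of alpha-chain UMIs, Lama2 thus made up 66.4% and 68.0% in radial glia and 95.1% and 93.7% in intermediate progenitors, Lama4 made up 72.3% and 72.0% in mural cells and 88.7% and 87.0% in endothelial cells, and fibroblasts were mixed with 45.0% and 42.9% Lama1, 33.3% and 32.3% Lama2 and 21.6% and 24.9% Lama4. These are shares of captured molecules and not of protein.

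**Figure D3:**
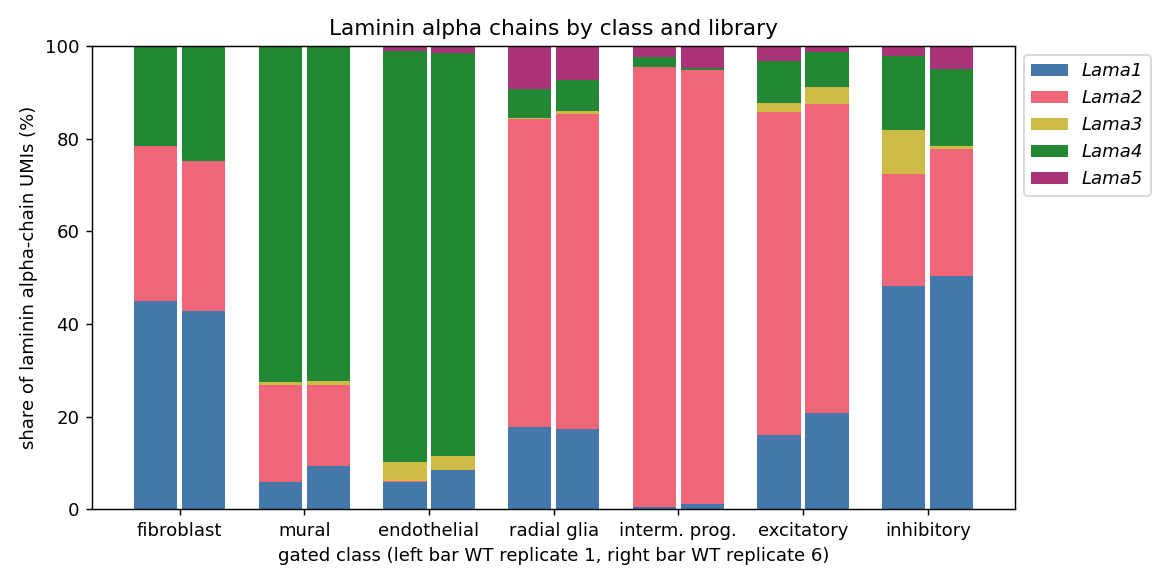
Share of laminin alpha-chain UMIs, in percent, for 5 alpha chains in 7 gated classes, with WT1 as the left and WT6 as the right bar. Lama4 fills most of the mural and endothelial bars, Lama2 most of the bars of both progenitor classes and of excitatory neurons, and fibroblasts hold Lama1, Lama2 and Lama4.

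Beta and gamma chains were less divided. Lamb1 was at 394 and 393 CPM in mural cells, 291 and 301 in fibroblasts and 130 and 111 in endothelial cells, and made up 85.3% to 94.4% of beta-chain UMIs in these classes. In radial glia Lamb2, the beta chain known from the neuromuscular junction, made up 67.0% and 90.6% of beta-chain UMIs, at 16.0 and 18.4 CPM, against 8.19 and 4.15 CPM in microglia. Lamc1, the common gamma chain, was at 389 and 345 CPM in mural cells, 207 and 206 in fibroblasts, 179 and 161 in endothelial cells and 49.3 and 49.1 in radial glia. Lamc3 was confined, among classes at 10 CPM or more, to mural cells (144 and 170 CPM) and fibroblasts (98.0 and 96.5 CPM), and had 5 and 0 UMIs in endothelial cells.

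Differences between classes were tested on the summed UMIs with edgeR's quasi-likelihood test, with adjusted p-values (Benjamini-Hochberg) over all genes tested and a threshold of 0.05. Between fibroblasts and mural cells, the mesenchymal classes, most members differed. Of 34 tested, 30 passed, 22 higher in fibroblasts and 8 higher in mural cells, beside 28.5% of all 10861 genes tested (14.5% higher and 14.0% lower). Collagens were mostly higher in fibroblasts (20 of 27 tested, with 5 lower), while 2 of 7 laminins were higher there and 3 lower. Higher in mural cells were Col28a1, Col8a1, Col14a1, Col4a1, Col4a2, Lama4, Lamc1 and Lamc3, of which Lamc3 (-0.60 ± 0.15) did not pass with DESeq2 or with all classes in 1 fit. Col4a6 had 451 and 384 UMIs in fibroblasts and none in mural cells, at least 209-fold higher (adjusted p = 2.31e-09). The membrane collagen Col13a1 had 263 and 192 UMIs in fibroblasts and 3 in mural cells, a ratio of 114 with a counting interval of 38.7 to 554, and Col6a1 differed by 6.67 ± 0.40 (log2, SE). Col9a2, a chain of type IX collagen, had 25 and 21 UMIs in fibroblasts and none in mural cells, at least 11.5-fold higher.

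In the opposite direction, Col28a1 had 82 and 68 UMIs in mural cells and none in fibroblasts, at least 66.6-fold higher in mural cells (adjusted p = 2.4e-07). It was detected in 36.8% and 32.4% of mural cells, and in 1.12% and 1.02% of microglia, at median depths of 8769 and 8402 against 8195 and 6958 UMIs per cell. Col8a1, a short-chain collagen of vessel walls, was at 33.3 and 45.5 CPM in mural cells and differed by -3.87 ± 0.41 (log2, SE). That value rested on few cells, as 2 of 225 mural cells held 50% of its UMIs and 1 held 29.8%. Col14a1 differed by -2.07 ± 0.45 and Col4a1 by -0.97 ± 0.13, the latter with both mural libraries above both fibroblast libraries. Col27a1 (-0.08 ± 0.24), Lamb2 (0.17 ± 0.29), Lamb1 (-0.33 ± 0.14) and Col25a1 (0.96 ± 0.35) did not pass. Lamb1 and Col25a1 passed with the library as a block (adjusted p = 0.045 and 0.039). Lamb1 also passed without library scaling (0.0413) and with doublets removed (0.0273), and Col25a1 without the low-count filter (0.00145). The fibroblast marker list summed to 153 and 194 CPM in mural cells with 6 of 8 markers detected, chiefly Foxc1 at 121 CPM, and Lum had no UMI there. Mural markers summed to 110 and 116 CPM in fibroblasts with 8 of 8 detected.

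**Figure D4:**
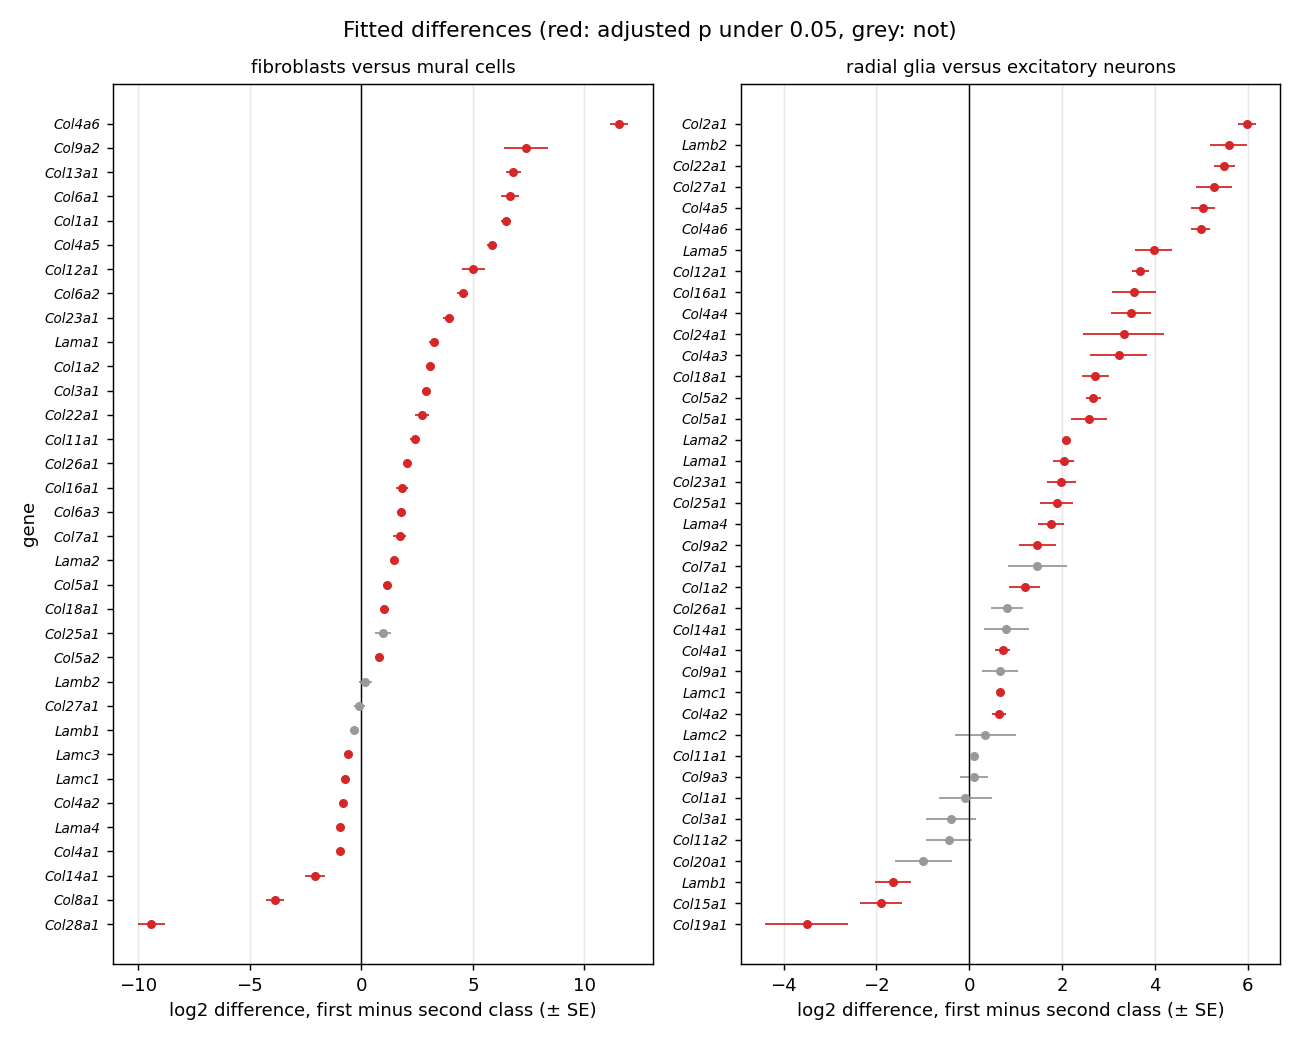
Fitted log2 differences ± SE of the tested members between fibroblasts and mural cells (left, positive is higher in fibroblasts) and between radial glia and excitatory neurons (right, positive is higher in radial glia), in red where the adjusted p is under 0.05. On the left 22 members are called higher and 8 lower, and on the right 25 higher and 3 lower.

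Against endothelial cells, fibroblasts were higher for nearly every called member. Of 33 tested, 28 passed, 26 of them higher in fibroblasts, beside 35.2% of all 10843 genes (17.5% higher and 17.7% lower). Endothelial cells held no UMI of Col1a1, Col6a1, Col6a2 or Col13a1, and the fibroblast levels were at least 567-fold, 134-fold, 118-fold and 113-fold higher. Lama3, the alpha chain of epithelial laminin, was higher in endothelial cells, with 25 and 14 UMIs against 1 in fibroblasts, a ratio of 52.4 with a counting interval of 8.87 to 2123. Lama4 was the other, at -0.76 ± 0.17 (log2, SE; adjusted p = 0.00538). Col4a1 (0.24 ± 0.17), Col4a2 (-0.09 ± 0.17) and Lamc1 (0.31 ± 0.15) did not pass, and the endothelial libraries of Col4a1 spread more widely than the fibroblast libraries.

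Mural cells were higher than endothelial cells for most called members. Of 27 members tested, 21 passed, 19 of them higher in mural cells, beside 28.5% of all 10437 genes (14.1% higher and 14.4% lower). Lama2 had 173 and 124 UMIs in mural cells and 2 in endothelial cells, a ratio of 147 with a counting interval of 40.4 to 1221. Col6a3 had 82 and 62 UMIs against 1, a ratio of 143 (25.2 to 5676), and Col8a1 had 39 and 45 against 1, a ratio of 83.3 (14.5 to 3327). Col3a1 differed by 6.38 ± 0.26 (log2, SE). Lower in mural cells were Col15a1, a multiplexin of vascular basement membranes, with 24 and 17 UMIs in endothelial cells and none in mural cells (at least 13.8-fold), and Lama3 at -1.61 ± 0.45 (adjusted p = 0.0263, but 0.212 with DESeq2 and 0.0648 with all classes in 1 fit). The endothelial Lama3 UMIs lay in few cells, as given above. Lama4 (0.19 ± 0.15) and Col18a1 (-0.14 ± 0.22) did not pass. Endothelial markers summed to 360 and 322 CPM in mural cells, mainly Emcn and Flt1, with Cldn5 at 2.29 CPM, and mural markers summed to 5.14 and 8.22 CPM in endothelial cells.

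Fibroblasts and radial glia meet at the pial surface, and 35 of 38 tested members differed between them, 31 higher in fibroblasts, beside 46.8% of all 13004 genes (24.3% higher and 22.5% lower). Library scaling moved the median log2 difference of all genes by 0.19 here and by -0.18 between radial glia and excitatory neurons, and differences are given on that scale. Col6a3 had 325 and 289 UMIs in fibroblasts and none in radial glia, at least 623-fold higher. Col3a1 (10.85 ± 0.25), Col1a1 (10.07 ± 0.25) and Col1a2 (8.96 ± 0.20) followed (log2, SE). Higher in radial glia were Lama5, with 37 and 27 UMIs against none (at least 7.01-fold), Col9a3, with 125 and 48 UMIs against 2, the cartilage collagen Col2a1 at -3.90 ± 0.37 and Col4a4 at -1.62 ± 0.39 (adjusted p = 0.0786 with DESeq2). Col12a1 and Col22a1, fibril-associated collagens, were among the 3 members that did not pass. Col22a1 was at 56.4 and 53.2 CPM in fibroblasts and 61.8 and 56.5 CPM in radial glia (0.08 ± 0.14), and Col12a1 at 43.6 and 47.9, and 43.2 and 53.2 CPM (0.11 ± 0.17). The third, Col8a2 (2.16 ± 0.80), passed with the library as a block (adjusted p = 0.0148). It also passed without the low-count filter (0.000608), under the stricter gate (0.0138) and with doublets removed (5.30, adjusted p = 0.000876). In fibroblasts 9 of 205 cells held 50% of the Col12a1 UMIs, in radial glia 72 of 887. Radial glial markers summed to 868 and 807 CPM in fibroblasts, of which Slc1a3 made up 774 CPM, with Hes5 at 0.70 CPM, and fibroblast markers summed to 35.9 and 26.5 CPM in radial glia.

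Radial glia are the stem cells of the cortex and give rise to intermediate progenitors, which divide to make neurons. Between these classes 15 of 25 tested members passed, 13 higher in radial glia and 2 lower, beside 31.8% of all 12403 genes (17.7% higher and 14.1% lower). Col12a1 had 197 and 223 UMIs in radial glia and 3 in intermediate progenitors, a ratio of 55.7 with a counting interval of 18.9 to 271. Col2a1 was at 32.9 and 39.6 CPM against 1.83 and 4.88 (3.32 ± 0.33, log2, SE) and Lama1 at 15.6 and 15.0 CPM against 4 UMIs (3.64 ± 0.45). Col16a1 had 24 and 19 UMIs against 1, a ratio of 17.1 (2.91 to 691), which did not pass with DESeq2 (adjusted p = 0.0752). Col4a5, Col4a6, Col22a1, Lamb2 and Lamc1 were also higher in radial glia, at 1.04 to 2.45.

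The exceptions were Lama2 and Col14a1. Lama2 was at 58.1 and 58.6 CPM in radial glia and 141 and 128 CPM in intermediate progenitors, a difference of -1.26 ± 0.11 (log2, SE; adjusted p = 7.02e-05), with no overlap between libraries. It was detected in 24.7% and 30.1% of intermediate progenitors and 23.9% and 22.3% of radial glia, and after thinning every cell to 1500 UMIs in 10.3% and 14.5%, and 7.83% and 7.05%. In microglia these shares were 5.62% and 1.02% before and 0% and 1.02% after thinning. The median UMIs per cell were 9231 and 9188 in intermediate progenitors, 9488 and 9013 in radial glia and 8195 and 6958 in microglia. The UMIs were unevenly distributed, since 14 of 367 intermediate progenitors held 50% of them and 1 cell held 9.21%. Fibroblast markers summed to 9.75 and 9.76 CPM in the intermediate progenitors, with Dcn at 1.76 CPM. Col14a1, which binds to collagen fibrils, had 29 and 33 UMIs in intermediate progenitors against 7 and 4 in radial glia (-3.84 ± 0.38), with 11 of 367 cells holding 50% of them. Col11a1 (-0.34 ± 0.12), Col4a1 (-0.06 ± 0.38) and Col9a3 (1.44 ± 0.55) did not pass, but Col9a3 passed with the library as a block (adjusted p = 0.00273). Col9a3 also passed without library scaling (0.0456), without the low-count filter (0.000899) and with all classes in 1 fit (0.0208). With doublets removed, Col11a1 passed (0.0487). Col4a1 had 14 and 45 UMIs in intermediate progenitors, and 1 of 367 cells held 45.8% of them.

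**Figure D5:**
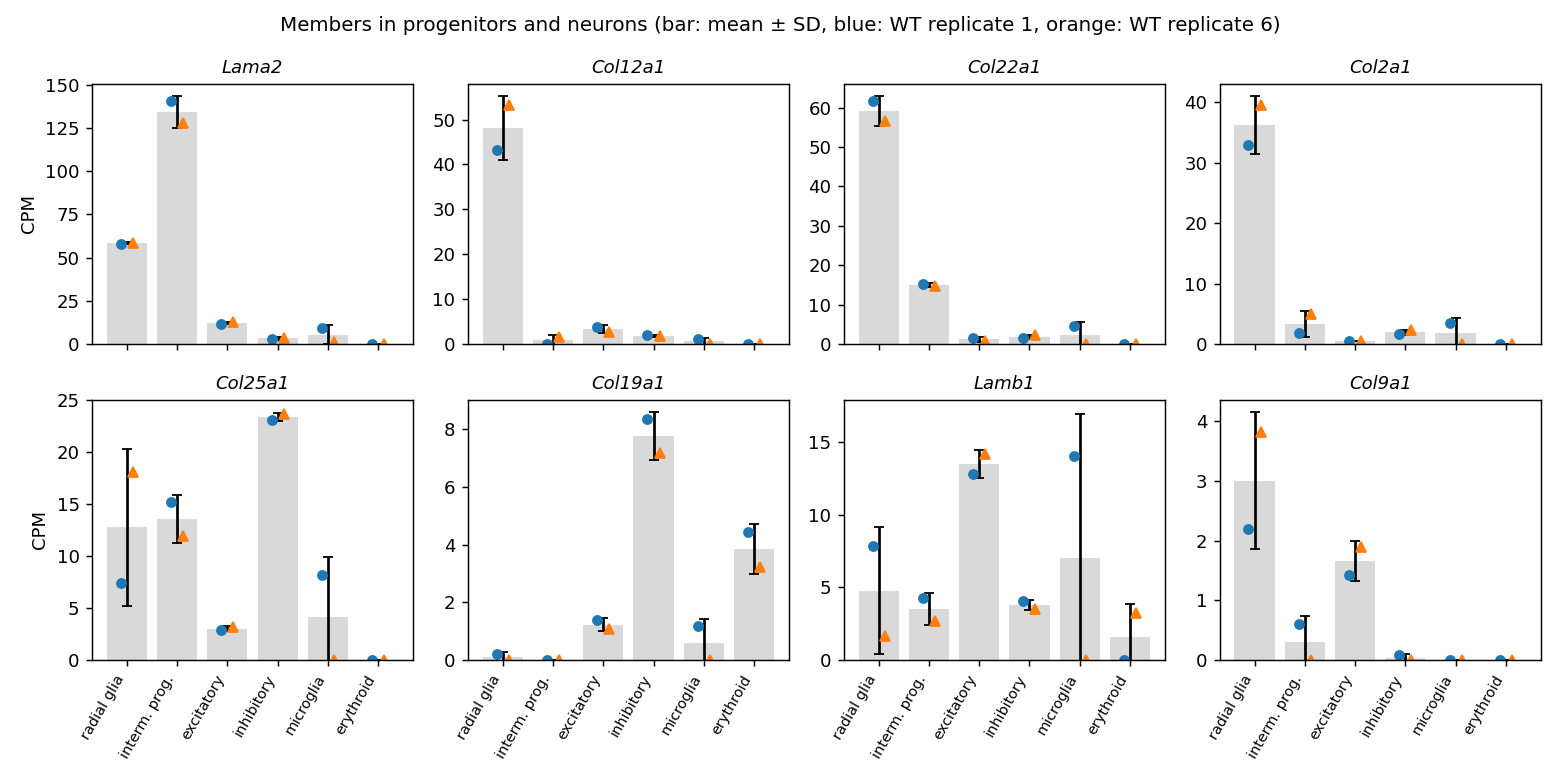
CPM of 8 members in progenitors, neurons and the background classes microglia and erythroid cells, with bars for the mean ± SD (n = 2 libraries), circles for WT1 and triangles for WT6. Lama2 peaks in intermediate progenitors, Col12a1, Col22a1 and Col2a1 in radial glia, Col25a1 and Col19a1 in inhibitory neurons and Lamb1 in excitatory neurons.

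From radial glia to excitatory neurons, most members were lower. Of 39 tested, 28 passed, 25 of them higher in radial glia, beside 64.2% of all 16061 genes (32.0% higher and 32.2% lower). Col2a1 differed by 5.98 ± 0.20, Lamb2 by 5.59 ± 0.40, Col22a1 by 5.50 ± 0.23 and Col27a1, a fibrillar collagen, by 5.27 ± 0.38 (log2, SE). Higher in excitatory neurons were Lamb1 (-1.64 ± 0.39), Col15a1 (-1.91 ± 0.45) and Col19a1, with 36 and 28 UMIs against 1 in radial glia, a ratio of 10.7 with a counting interval of 1.85 to 430. For Col19a1, 2 of 5779 excitatory neurons held 50% of the UMIs, and it did not pass with DESeq2 (adjusted p = 0.0632). Lamb1 was at 12.8 and 14.2 CPM in excitatory neurons, detected in 10.0% of 5779 cells, and at 7.89 and 1.67 CPM in radial glia, against 14.0 and 0 CPM in microglia. Col9a3 and Col11a1 did not pass, at 0.10 ± 0.30 and 0.11 ± 0.09. With doublets removed, Col9a3 turned to -0.83 and was called (adjusted p = 0.00262), and 1 radial glial cell held 14.5% of its UMIs. Oligodendrocyte precursor markers summed to 52.8 and 68.2 CPM in radial glia with 7 of 8 detected and their part in the Col9a3 level was not tested.

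Between inhibitory and excitatory neurons, 23 of 39 tested members passed, 16 higher in inhibitory neurons and 7 lower, beside 47.5% of all 16267 genes (24.1% higher and 23.4% lower). These were 17 of 29 collagens and 6 of 10 laminins. Col25a1, a membrane collagen that is shed and needed for motor innervation of muscle, was at 23.1 and 23.7 CPM in inhibitory neurons and 2.84 and 3.19 CPM in excitatory neurons (2.85 ± 0.12, log2, SE; adjusted p = 3.16e-06). It was detected in 4.71% of 3839 inhibitory neurons, 28 of which held 50% of its UMIs, against 1.68% of excitatory neurons. After thinning to 1500 UMIs it was found in 2.57% and 2.16% of inhibitory neurons, 0.653% and 0.496% of excitatory neurons and 0% of microglia in both libraries. Col19a1, known from interneurons of the hippocampus, was at 8.34 and 7.17 CPM against 1.38 and 1.06 (2.56 ± 0.22), and 10 of 3839 cells held 50% of its UMIs. Oligodendrocyte precursors, which held Col19a1 at 305 and 271 CPM, had markers that summed to 83.7 and 78.4 CPM in inhibitory neurons (8 of 8 detected) and 18.1 and 29.3 CPM in excitatory neurons (7 of 8), and their part in the Col19a1 difference was not tested. Col4a4 (2.32 ± 0.44) and Lamb2 (2.03 ± 0.57) were higher as well, Lamb2 no longer with doublets removed (adjusted p = 0.0551). Col1a1, Col1a2, Col3a1 and Col5a2 were among the others called higher in inhibitory neurons, at 1.02 to 1.35. Of these, Col3a1 did not pass with DESeq2, with all classes in 1 fit, or under the stricter cell filter or gate (adjusted p from 0.054 to 0.101), Col1a1 did not pass with DESeq2 (0.0609), and Col1a2 did not under the stricter cell filter (0.0695) or gate (0.0999). Fibroblast markers summed to 15.9 and 13.5 CPM in inhibitory and 8.26 and 6.65 CPM in excitatory neurons, with 8 of 8 detected in both, and their part in these calls was not tested.

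Higher in excitatory neurons were Lama2 at 11.6 and 12.6 CPM against 2.78 and 3.73 (-1.998 ± 0.17, log2, SE) and Lamb1 at 12.8 and 14.2 against 4.05 and 3.54 CPM (-1.92 ± 0.15). Col15a1 (-2.70 ± 0.34) and Col9a1, with 37 and 50 UMIs against 1, moved the same way. Col1a1 and Col3a1 were at most 2.55 and 2.61 CPM in any library of these neurons, against 5.85 and 17.5 CPM in the WT1 microglia. WT1 was the higher background library, as all fibrillar collagens together were at 81.9 and 19.4 CPM in microglia and at 17.8 and 3.22 CPM in erythroid cells.

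The partners that make, cross-link, bind and degrade these proteins were counted in 5 lists of 63 genes, to be read beside the share of all genes called in the same comparison. In the list of collagen synthesis and cross-linking, 26 of 27 tested genes differed between fibroblasts and radial glia, 24 of them higher in fibroblasts, beside 46.8% of all genes, with a median of 2.51 (log2) beside -0.02 for all genes. Lox, which cross-links collagen, was at 87.1 and 94.3 CPM in fibroblasts against 3 UMIs in radial glia, and Ctsk, a collagen-degrading protease, at 148 and 166 CPM against 5 UMIs. Between fibroblasts and mural cells 16 of 25 genes of the synthesis list passed, 14 of them higher in fibroblasts, beside 28.5% of all genes. The gelatinase Mmp9 was at 343 and 404 CPM in mural cells and had no UMI in fibroblasts or endothelial cells, at least 356-fold and 265-fold higher, whereas the gelatinase Mmp2 was higher in fibroblasts at 75.6 and 80.6 against 1.71 and 2.02 CPM (5.40 ± 0.36). Itga7, a laminin receptor, had 20.5 and 12.1 CPM in mural cells and none in fibroblasts. Pcolce, an enhancer of procollagen processing, was at 134 and 112 CPM in fibroblasts and 88.0 and 75.8 CPM in mural cells, with no UMI in endothelial cells.

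Receptors were counted in both directions. Between fibroblasts and endothelial cells 10 of 10 tested receptors passed, 4 higher in fibroblasts and 6 lower, beside 35.2% of all genes. The collagen-binding Itga2 (58.3 and 60.6 CPM) and the laminin-binding Itga6 (146 and 168 CPM) were higher in endothelial cells, at -4.74 ± 0.43 and -4.59 ± 0.24 (log2, SE). Colgalt2, which adds galactose to collagen, was at 39.4 and 56.5 CPM in endothelial cells against 3 UMIs in mural cells. Adgrg1, a receptor for type III collagen in the developing cortex, was at 65.1 and 66.0 CPM in radial glia against 4.48 and 1.52 CPM in fibroblasts (-4.19 ± 0.30), the reverse of the Col3a1 levels, and the collagen receptor Lair1 had 6.35 and 7.15 CPM in radial glia and no UMI in fibroblasts. From radial glia to intermediate progenitors 7 of 9 tested receptors passed, beside 31.8% of all genes, all 7 higher in radial glia, Lair1 among them, while P4ha3, a prolyl hydroxylase subunit, had no UMI in intermediate progenitors (at least 33.3-fold) and Loxl1 was higher in them (-1.001 ± 0.15). Between radial glia and excitatory neurons 11 of 15 receptors were higher in radial glia and 2 lower, the latter including Itga3 (-1.69 ± 0.47), and 15 of 24 synthesis genes were higher and 4 lower, beside 64.2% of all genes called in either direction. Sparc, a collagen-binding protein, was at 273 and 213 CPM in radial glia and 4.23 and 2.74 CPM in excitatory neurons, and the procollagen protease Adamts2 at 4.60 and 5.24 against 56.8 and 64.8 CPM. Adamts2 was likewise higher in excitatory than inhibitory neurons (-4.01 ± 0.11), as was P3h4 (-1.23 ± 0.28), whereas Ddr2 (2.13 ± 0.42) and Mrc2 (1.82 ± 0.18) were higher in inhibitory neurons. Of the 4 basement membrane partners, 4 were higher in radial glia than in excitatory neurons and 3 were higher in fibroblasts than in radial glia. The shares of all genes called higher in these comparisons were 32.0% and 24.3%. Of 8 tested turnover genes, 8 differed between fibroblasts and radial glia, 7 of them higher in fibroblasts, beside 46.8% of all genes. Of the 6 enzymes that glycosylate dystroglycan, the laminin receptor that needs their sugars, 4 differed between radial glia and excitatory neurons, 2 in each direction, a share near the 64.2% of all genes, and at most 1 in any other comparison.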

How the data were processed

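The 2 WT libraries were made with the 10x Genomics 3′ v3.1 chemistry from papain-dissociated dorsal telencephalon and, per the submitters' processing notes, were processed with Cell Ranger 7.0.0 on mm10. The matrices deposited by the authors hold whole-number UMI counts of each gene in each cell, not normalised. The annotation version and whether intronic reads were counted are not given in the sources used here. Because 3′ UMIs count molecules, levels are not scaled by length, and reads of overlapping or antisense genes may not be separable (the starts of Col4a1 and Col4a2 overlap).

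Kept cells had between 1500 and 60000 UMIs, less than 10% of them mitochondrial. Without doublet removal, they were gated on 8 markers per class and summed per library and class. The sums were tested with edgeR 4.0.16 (R 4.3.3) by the two-sided quasi-likelihood test with TMM scaling, filterByExpr and Benjamini-Hochberg adjustment over all genes, with only the 2 classes compared in each fit. The gates held 71.7% and 73.7% of kept cells, and their median depth was 4480 to 13761 UMIs. Intervals are counting intervals (95%), a count of 0 was set to a floor of 3 counts over the group, and both cover counting error only. Levels were described for members of at least 100 CPM in a class. In each comparison the 4 highest and 4 lowest called members were named, with the 2 highest and 2 lowest of the pathway lists. Naming by this rule required at least 10 UMIs in each library of the higher class and the sign of the fit in both libraries. Other members were named after their values were seen. The tests were checked on simulated data. Members, markers and lists were chosen with earlier results of these data known.

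Sums of the same library come from the same cell suspension, which pairs them. Deviations from the class mean correlated, between sums of the same library, at 0.15, 0.17, 0.14, 0.17, 0.19, 0.24 and 0.38 in the 7 comparisons, in the order of the report. Sequences and gene positions are from RefSeq (GRCm38.p6), matched by symbol for 55 of 55 members, of which 40 had a promoter window.

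Alternatives were no TMM scaling, no filter on low counts, DESeq2 1.42.0, all classes in 1 fit, the library as a block, removal of scored doublets (920 and 857 cells), a stricter cell filter (3000 to 30000 UMIs, under 5% mitochondrial), a stricter gate (4 markers, lead of 3), and leaving out a library.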

Additional observations from a re-analysis of the deposited data

How the results depend on the processing

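The counts of called members kept within 1.5 times of those reported under every alternative that gave a test. In the order of the report, the lowest and highest counts over these alternatives were 29 and 35, 27 and 32, 19 and 27, 33 and 40, 11 and 20, 26 and 30, and 16 and 25, so the neuron comparison and that of the progenitors were the least steady. The library as a replicate block gave 32, 28, 22, 36, 16, 29 and 25 called members, and this pairing changed no call among the 76 differences of genes named by the rule. Among others, it added Lamb1 and Col25a1 (fibroblasts against mural cells), Col8a2 (fibroblasts against radial glia) and Col9a3 (radial glia against intermediate progenitors). These are given above as not passing in the main fit and as passing under other alternatives too. Over these 76 differences, no alternative reversed a direction, 589 values stayed on the same side of the threshold, 8 did not, and in 11 cases the gene was under the low-count filter of the alternative and had no test. With DESeq2, Lama3 (mural against endothelial cells, adjusted p = 0.212), Col4a4 (fibroblasts against radial glia, 0.0786), Col16a1 (radial glia against intermediate progenitors, 0.0752), Col19a1 (0.0632) and Itga3 (0.0547, both radial glia against excitatory neurons) no longer passed, nor did Lama3 with all classes in 1 fit (0.0648) or Lamb2 between the neuron classes with doublets removed (0.0551) or under the stricter gate (0.0775). The causes were not tested. Levels of the 23 members at 100 CPM or more changed by factors of 0.978 to 1.18 under the stricter gate, the stricter cell filter and doublet removal. Leaving out a library leaves no residual degrees of freedom, so it gives values without a test. The naming rule required the sign of the fit in both libraries, so no single-library log2 difference among the 76 could reverse. Of these 76 differences, 36 moved by more than the spread between replicates without WT1 and 35 without WT6. Depth limits the members under 100 UMIs and every value resting on a class with few UMIs.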

Other observations

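Oligodendrocyte precursors, which were gated in 33 and 26 cells and entered no comparison, held Col19a1 at 305 and 271 CPM, above the inhibitory neurons at 8.34 and 7.17 CPM. Of the 59 cells, 6 held 50% of these UMIs. Col9a3 was at 98.4 and 86.6 CPM in the same cells, Col11a1 at 82.5 and 71.5 CPM and Lama4 at 79.3 and 56.4 CPM, and the totals behind them were 15 to 96 UMIs per library. Cajal-Retzius cells held Col23a1 at 67.3 and 10.7 CPM, a value set by WT1, and Lama3 at 8.41 and 10.7 CPM.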
